A study of Mus musculus with 9 samples.

Results

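The comparison set lung macrophages of mice homozygous for a Pparg deletion against lung macrophages of heterozygous mice, with both groups of cells labelled wild type. It is made between 3 arrays titled Hom lung Mph and 3 titled Het lung Mph, all hybridised on 1 slide. These are 6 of the 9 arrays of the study. The other 3 also entered the normalization and the fit, where they add to the estimate of the spread. Probes were taken in when their detection p-value, the chance of a signal that bright without target, was under 0.05 on at least 3 of these 6 arrays. That held for 19849 of the 46237 probes, and the 15516 of them with a gene symbol stood for 11301 genes.

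Hom macrophages came from mice with the genotype label Pparg-/-.LysMCre and are called wild type alveolar macrophages by their cell type label. The other 3 arrays of the study, titled Hom int pop, share the genotype label Pparg-/-.LysMCre and are called Pparg deficient. They were hybridised on another slide, so slide and group cannot be told apart wherever int pop arrays are set beside the macrophage arrays. Het macrophages came from Pparg-/+.LysMCre mice and are again called wild type alveolar macrophages. All mice were female C57/BL6 animals aged 8 weeks, all carried a Cre recombinase driven by the LysM promoter, and all cells were sorted from lung by the surface proteins SiglecF and CD11b. The labels do not say by what criterion cells of a homozygous mouse counted as wild type, nor what "int pop" stands for. The titles give the Hom and int pop arrays the same names, Hom1 to Hom3, without saying whether those are the same mice, and all 9 arrays entered the fit as independent samples. Nothing says that a replicate number stands for a separate mouse, so the p-values below rest on differences between samples that may be only technical.

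Alveolar macrophages live in the air spaces of the lung, where they clear surfactant lipid, inhaled particles and microbes. PPARg is a nuclear receptor that binds DNA as a partner of the retinoid X receptors, is activated by fatty acids and their derivatives, and is needed for the development and lipid metabolism of these cells. In macrophages it is also known to restrain inflammatory genes. A Cre driven by the LysM promoter removes a floxed gene in myeloid cells, and cells in which it does not act keep the gene.

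The 6 arrays had a median raw signal, on a linear intensity scale, of 145, 241.7 and 209.9 in the Hom group and of 198.4, 217 and 290.3 in the Het group. Between 40.0% and 42.5% of all probes were above background on each. Log2 signals of the tested probes correlated at 0.798 to 0.849 among the Hom arrays, at 0.851 to 0.885 among the Het arrays and at 0.738 to 0.869 across the groups. Hom arrays were therefore no more alike among themselves than they were to Het arrays, and the lowest value was that of Hom replicate 1 with Het replicate 3. These are also the arrays with the lowest and the highest raw signal, and they lay at the ends of the first principal component, with scores of -91.1 and 62.5. That component held 34.8% of the variance and did not separate the groups. The second held 21.8%, with Hom replicate 3, at -77.3, far from the other 5 arrays. Precision is limited by the few arrays in a group, and Hom arrays took positions 1 to 3 of the slide and Het arrays positions 4 to 6, so position and group cannot be told apart.

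**Figure D1:**
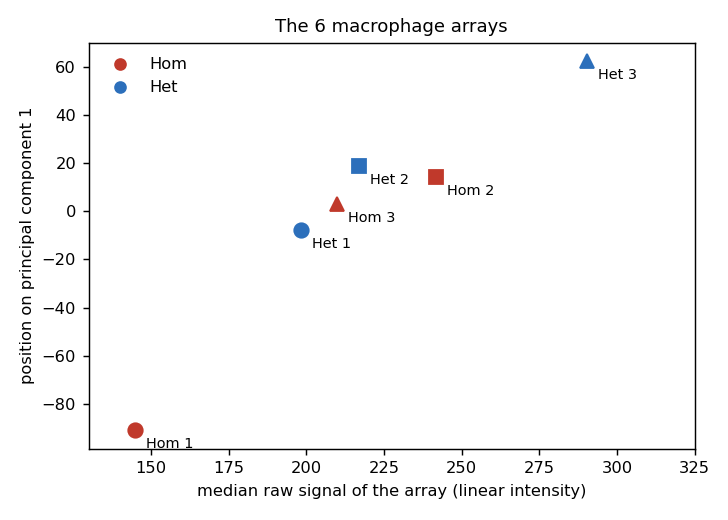
Median raw signal of each of the 6 arrays (linear intensity, x axis) against its score on the first principal component of the log2 normalised signals (y axis), with Hom arrays in red, Het arrays in blue and marker shape for the replicate number. Hom 1, at a signal of 145 and a score of -91.1, and Het 3, at 290.3 and 62.5, are the ends of both axes, and the other 4 arrays of both groups lie together between them.

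Hom arrays also spread more widely among themselves. The SD of a probe over 3 arrays had a median of 0.46 (log2) in the Hom group and 0.39 in the Het group, a ratio of 1.20, and 59.8% of probes varied more among the Hom arrays. The ratio was 0.781 without Hom replicate 1 and 1.07 without Hom replicate 2 or 3. It was 1.52, 1.38 and 1.68 without Het replicates 1, 2 and 3. Each of these sets an SD over fewer arrays against an SD over 3, which by itself moves the ratio.

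Pparg, the targeted gene, was present in both groups at overlapping levels. Its brightest probe read 9.71, 9.15 and 8.13 (log2 normalised signal) in Hom macrophages, against 9.46, 9.36 and 9.55 in Het macrophages. The means were 9.00 ± 0.80 and 9.45 ± 0.09 (SD, n = 3 each), a difference of -0.46 with a limma adjusted p of 0.857. By exact permutation (two-sided) p was 0.5, where 0.1 is the smallest that 3 against 3 arrays allow. Hom replicate 3 was the lowest of the 6 arrays on all 3 Pparg probes, and without it the difference of the brightest probe was -0.02. The second probe differed by -0.52 (exact permutation p = 0.3). The third and dimmest read 7.23, 6.21 and 4.35 in Hom macrophages, against 7.37, 7.13 and 7.43 in Het macrophages (exact permutation p = 0.2). On that probe the Hom arrays spanned the range between the Het arrays and background, and Hom replicate 3 was not above background. The int pop arrays averaged 7.52 ± 0.27 on the brightest probe, below all 6 macrophage arrays. Which part of the gene was deleted, and whether the probes lie outside it, is not stated, so these levels do not check the labels.

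Both lysozyme genes read lower in Hom macrophages, and neither was called: Lyz2 did not enter the fit, and Lyz1 missed the threshold. Lyz2 is the gene also called LysM, whose promoter drives the Cre. None of its 3 probes was above background on a Hom or an int pop array, while 2, 2 and 1 Het arrays were above it, so none entered the fit. The Lyz2 probe with the highest Het mean read 4.22, 4.20 and 4.23 in Hom macrophages, against 5.39, 6.44 and 5.04 in Het macrophages. Each of the 3 probes gave an exact permutation p of 0.1, the smallest possible. Lyz1, the lysozyme gene typical of Paneth cells, read 5.91, 6.26 and 5.21 in Hom macrophages, against 9.30, 9.42 and 8.35 in Het macrophages. The groups lay far apart, by -3.23 (SE 0.519), at a limma adjusted p of 0.116, and the int pop arrays were at 10.27, 9.14 and 8.32. A second Lyz1 probe differed by -1.08 with overlapping groups. Lyz1 and Lyz2 are close paralogs, and whether their probes share signal was not tested.

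**Figure D2:**
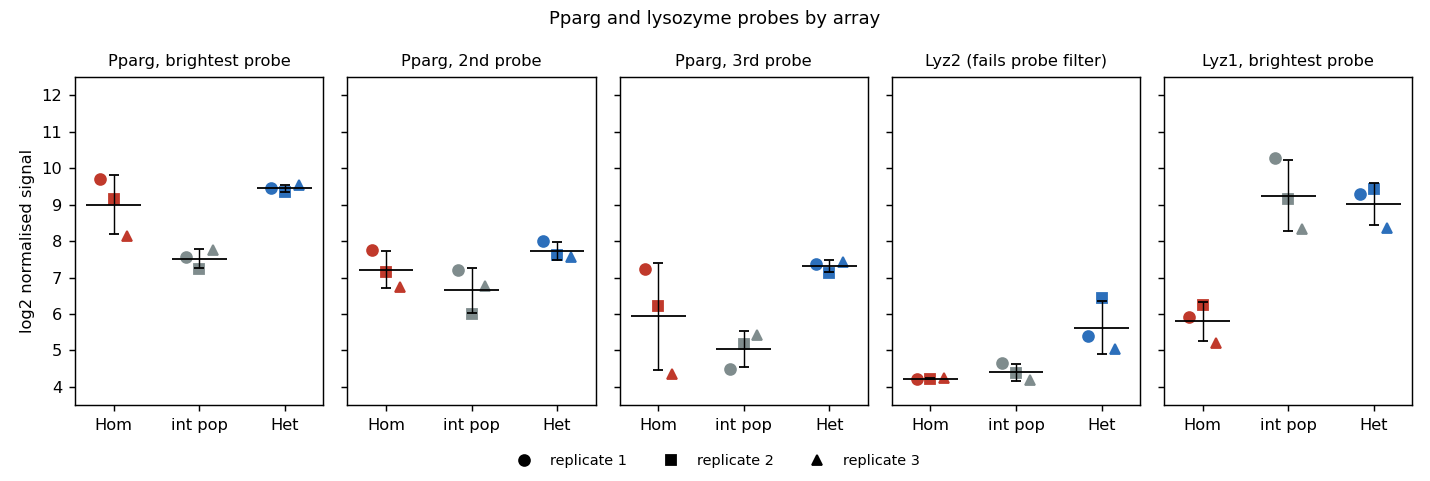
Log2 normalised signal (y axis) of the 3 Pparg probes, the brightest Lyz2 probe and the brightest Lyz1 probe in Hom, int pop and Het arrays, with marker shape for the replicate number, bars for the mean and whiskers for the SD (n = 3). Hom 3 is the lowest Hom array on each Pparg probe, while on the Lyz1 probe the Hom arrays, at 5.21 to 6.26, lie below the Het arrays, at 8.35 to 9.42.

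Across all 19849 probes, 6 passed an adjusted p (Benjamini-Hochberg) under 0.05 in limma and are spoken of as called, which is 0.0302% of those tested. Of these, 5 were higher in Hom macrophages (0.0252%) and 1 was lower (0.00504%). At an unadjusted p under 0.05 there were 1347 probes (6.79%), 773 of them higher (3.89%) and 574 lower (2.89%). All Hom arrays were above all Het arrays on 5.32% of probes and below on 6.93%. Among genes, read from their brightest probe, 4 were called (0.0354%), and 727 had an unadjusted p under 0.05 (6.43%), with 404 higher (3.57%) and 323 lower (2.86%). Of the genes, 603 had all Hom arrays above all Het arrays (5.34%) and 777 had all below (6.88%). The median difference over genes was -0.08, and 42% of genes had a positive one against 58% with a negative one. Of the 5 probes called higher, 4 were above background on the 3 Hom arrays and on no Het array, so they passed the filter only through the group in which they were high.

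**Figure D3:**
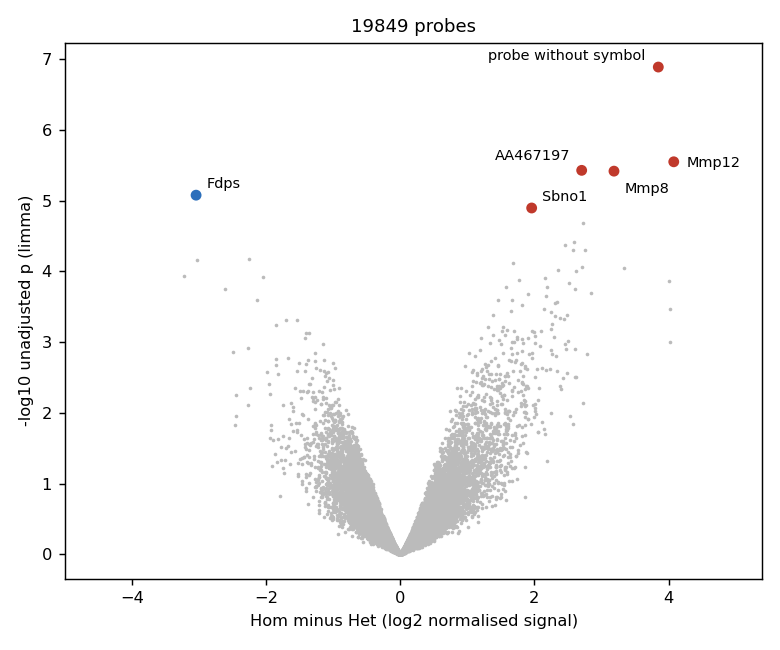
Difference between Hom and Het macrophages on the log2 scale (x axis) against -log10 of the unadjusted limma p (y axis) for the 19849 probes, with the 6 called ones coloured (red higher, blue lower in Hom) and named. Among the called probes, Mmp12 and the probe without a symbol lie farthest to the right, at 4.08 and 3.85, and Fdps, at -3.04, is the one called on the left.

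The largest called difference was that of Mmp12, macrophage elastase, a secreted protease that cuts elastin and other matrix proteins. Mmp12 read 9.95, 10.99 and 11.11 in Hom macrophages, against 6.06, 7.41 and 6.34 in Het macrophages. Every Hom array lay above every Het array, with means of 10.68 ± 0.64 and 6.60 ± 0.71 (SD, n = 3 each). Mmp12 thus rose 16.9-fold, a log2 difference of 4.08 (SE 0.421, limma adjusted p = 0.019). The int pop arrays, on another slide, read 11.75, 11.88 and 11.80, above all Hom arrays. The difference was 2.69 with no background correction and 2.67 on the authors' normalized values, both called. With only the 6 compared arrays in the fit it was 3.98 and was not called (limma adjusted p = 0.113). It was 3.81 to 4.51 whichever array was left out, but the call was lost in 5 of those fits, where the adjusted p was 0.213 without Hom replicate 2, 0.478 without Hom replicate 3, 0.0918 without Het replicate 1, 0.195 without Het replicate 3 and 0.0568 without int pop replicate 1.

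A second matrix metalloproteinase, Mmp8, was called as well. Mmp8 is a collagenase best known from neutrophil granules. It read 7.12, 7.25 and 8.32 in Hom macrophages, against 4.48, 4.32 and 4.33 in Het macrophages. No Het array was above background, so the fold is given as a bound. On this scale Mmp8 was at least 6.32-fold higher in Hom macrophages (limma adjusted p = 0.019). Such a bound sets the mean of the brighter group against the dimmest signals still above background on the arrays of the other. Where the gene's own signal was higher than those, it was used instead. This bound and those given below hold only for the background correction used here and are no lower limit under another. The int pop arrays averaged 7.87 ± 0.18. With no background correction the difference was 1.10, against 3.19 with it, and the call held (adjusted p = 0.0496). Leaving out any 1 Het array ended the call, with an adjusted p of 0.101 to 0.195, as did leaving out int pop replicate 1, at 0.0568. With only the 6 compared arrays in the fit Mmp8 was not called either (limma adjusted p = 0.113).

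Mmp12 and Mmp8 lie in the same gene cluster of chromosome 9, with Mmp1b, Mmp3, Mmp1a and Mmp10 between them on the RefSeq annotation of GRCm38.p6. Mmp13, next to Mmp12, read 6.10, 5.47 and 5.46 in Hom macrophages, against 5.71, 5.13 and 4.45 in Het macrophages (limma adjusted p = 0.825). Of the 2 tested Mmp1a probes, 1 differed by -1.11 and 1 by 0.24, neither called. No call was made in this cluster apart from Mmp12 and Mmp8. The 250 bases before each start in the RefSeq promoter table (GRCm38.p6, plus strand) are shown because Mmp12 and Mmp8 are the called neighbours, with 2 starts for Mmp12. Windows were searched on both strands for the AP-1 motif TGANTCA and for a direct repeat, AGGTCA and again AGGTCA after 1 base of any kind, bound by PPAR and retinoid X receptors. Capitals mark an AP-1 match.
Mmp12, first start, chr9:7344147-7344396: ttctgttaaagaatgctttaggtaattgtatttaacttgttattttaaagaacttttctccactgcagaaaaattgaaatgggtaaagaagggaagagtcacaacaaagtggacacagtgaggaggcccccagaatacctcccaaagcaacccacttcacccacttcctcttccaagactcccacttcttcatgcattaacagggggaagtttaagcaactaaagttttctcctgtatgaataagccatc
Mmp12, second start, chr9:7347124-7347373: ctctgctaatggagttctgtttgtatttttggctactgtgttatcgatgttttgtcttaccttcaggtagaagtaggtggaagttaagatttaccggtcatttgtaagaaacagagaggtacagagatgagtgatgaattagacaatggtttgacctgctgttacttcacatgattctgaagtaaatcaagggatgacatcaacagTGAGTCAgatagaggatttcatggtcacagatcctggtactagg
Mmp8, chr9:7558179-7558428: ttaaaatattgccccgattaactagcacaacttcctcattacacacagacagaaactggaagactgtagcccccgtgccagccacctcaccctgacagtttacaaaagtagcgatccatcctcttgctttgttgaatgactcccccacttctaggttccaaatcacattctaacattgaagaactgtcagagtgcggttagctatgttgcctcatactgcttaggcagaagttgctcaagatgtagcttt
The second Mmp12 window holds 1 AP-1 match, 44 to 38 bases before the start, and the Mmp8 window holds none. Of all 32851 windows of the same length in the table, 6.75% hold that motif and 0.0335% the direct repeat, which none of the 3 windows contains. A match of letters is a description and not a measured site.

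The other called probes, named because they are so few, do not all stand for a settled gene. AA467197, a clone-type symbol of a gene for a small mitochondrial protein, was at least 4.83-fold higher in Hom macrophages (limma adjusted p = 0.019). It read 6.80, 7.16 and 7.57 in Hom macrophages, against 4.42, 4.48 and 4.52 in Het macrophages, where no array was above background. The int pop arrays were higher again, at 9.69 ± 0.29. A probe without a gene symbol, ILMN_1239239, had the smallest adjusted p of all, 0.00256, and was at least 9.61-fold higher. It read 7.98, 7.94 and 8.59 in Hom macrophages, against 4.55, 4.18 and 4.24 in Het macrophages. A probe of Sbno1, a strawberry notch homolog, was at least 3.69-fold higher (adjusted p = 0.042), but the brightest Sbno1 probe differed by -0.45 with overlapping groups, so the gene has no single direction. AA467197 lost its call without any 1 Het array or without int pop replicate 1, at adjusted p-values of 0.0568 to 0.195, and Sbno1 without any 1 Het or int pop array, at 0.0604 to 0.215. The probe without a symbol was called in each of these fits. With only the 6 compared arrays in the fit it was called, while AA467197 and Sbno1 were not. With no background correction the differences of AA467197, the probe without a symbol and Sbno1 were 0.82, 1.56 and 0.52, against 2.71, 3.85 and 1.96 with it, and AA467197 and Sbno1 were then not called. None of these 3, nor Mmp8, could be tested with a Hom array left out, since they then fail the filter.

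The only probe called lower was 1 of Fdps, farnesyl diphosphate synthase, which makes the isoprenoid precursor of cholesterol and of prenyl groups. Fdps read 4.63, 5.56 and 5.19 in Hom macrophages, against 7.68, 8.56 and 8.27 in Het macrophages. The groups did not overlap, and the means of 5.13 ± 0.47 and 8.17 ± 0.45 (SD, n = 3 each) differ by -3.04 (SE 0.355, limma adjusted p = 0.0332). The int pop arrays, at 7.53 ± 0.36, were closer to Het than to Hom macrophages. A second, dimmer Fdps probe differed by -0.43 (adjusted p = 0.847), above background on 1 Hom and 2 Het arrays. With no background correction the difference was -1.15 and was called. Leaving out any 1 of the 9 arrays ended the Fdps call, with adjusted p-values of 0.054 to 0.478 and differences of -3.28 to -2.74. With only the 6 compared arrays in the fit Fdps was not called either (limma adjusted p = 0.121).

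Fdps was the only called gene among 13 measured genes of sterol and fatty acid synthesis, whose median difference was -0.16 against -0.08 over all genes, and -0.94 without Hom replicate 1. Of the 13, 9 had a negative difference, and 3 had all Hom arrays below all Het arrays, against 58% and 6.88% of all genes. Idi1, which isomerises the substrate of Fdps, read 7.62, 8.21 and 7.82 in Hom macrophages, against 8.83, 8.94 and 9.11 in Het macrophages. That difference of -1.08 did not pass the test (adjusted p = 0.352). Scd1, a desaturase of fatty acids, went the other way in value. It read 7.55, 5.78 and 5.43 in Hom macrophages, against 5.03, 4.27 and 4.61 in Het macrophages, where no array was above background (adjusted p = 0.54). Mvd and Acly, of the same list and chosen after their values were seen, had positive differences too.

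Below the threshold, the genes of smallest p with higher values in Hom macrophages included several of immune function. Cd200r2, of the CD200 receptor family of leukocytes, read 7.04, 8.11 and 8.37 in Hom macrophages, against 5.47, 4.91 and 5.36 in Het macrophages (limma adjusted p = 0.0898). Tnfsf9, the ligand 4-1BBL that costimulates T cells, read 7.27, 6.48 and 8.85 in Hom macrophages, against 4.16, 4.22 and 4.19 in Het macrophages (adjusted p = 0.11). Dhx58, the RNA sensor LGP2, read 7.26, 7.08 and 7.23 in Hom macrophages, against 4.41, 5.00 and 5.09 in Het macrophages (adjusted p = 0.11). In all 3 genes every Hom array lay above every Het array. A second Dhx58 probe differed by 1.81 the same way, whereas a second Cd200r2 probe differed by 0.19 with overlap. In the int pop arrays Cd200r2 averaged 8.85 and Tnfsf9 9.92, both above the Hom mean, and Dhx58 averaged 5.39, below it.

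The other named genes with higher values were Slc35e3, Spink2, Ccdc12, Rell1, Zranb3, Uhrf1bp1 and Zmiz2, at adjusted p-values of 0.0898 to 0.116. Ccdc12, which belongs to the spliceosome, was the tightest of them, with 8.31, 8.18 and 8.20 in Hom macrophages, against 6.58, 6.38 and 6.69 in Het macrophages. Spink2, a serine protease inhibitor, read 6.95, 7.97 and 8.43 in Hom macrophages, against 5.48, 4.84 and 4.78 in Het macrophages. Rell1, a relative of the TNF receptor RELT, read 7.55, 7.09 and 7.61 in Hom macrophages, against 4.29, 5.63 and 4.21 in Het macrophages. None of these groups overlapped. Zranb3, which remodels stalled replication forks, differed by 2.63 and Slc35e3, of a family of transporters, by 2.45. Both were below background on every Het array, which makes Zranb3 at least 3.93-fold and Slc35e3 at least 4.3-fold higher, at adjusted p-values of 0.11 and 0.0898.

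Lower values in Hom macrophages that missed the threshold were led by Krt79 and Mical3. Krt79, a keratin also listed here as an alveolar macrophage marker, read 4.50, 4.56 and 4.92 in Hom macrophages, against 7.62, 6.40 and 6.71 in Het macrophages (limma adjusted p = 0.104). Mical3, an oxidase that acts on actin, read 4.77, 4.79 and 4.28 in Hom macrophages, against 6.90, 8.79 and 7.25 in Het macrophages (adjusted p = 0.104). Both genes were above background on the 3 Het arrays only, among all 9. Kcnk5, a potassium channel, read 4.97, 4.32 and 4.25 in Hom macrophages, against 6.80, 6.91 and 5.98 in Het macrophages, but its second probe differed by 0.15 with overlap. Wtip, of the zyxin family, was below background on each Hom array and averaged 6.85 in Het macrophages. Wtip was also bright in the int pop arrays, at 7.74 ± 0.86.

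Of the remaining genes of this kind H3c10, Pum3 and Tmem237 were above background on all 6 arrays, while Slc6a4, Cfap45 and Nav2 were above it on all Het arrays but only 1 Hom array each. H3c10, a histone H3 gene, read 8.77, 8.19 and 8.33 in Hom macrophages, against 9.81, 9.63 and 10.05 in Het macrophages (adjusted p = 0.24). Histone H3 genes are near-identical copies, so which of them this probe reads is uncertain. Pum3, an RNA-binding protein of the nucleolus, read 7.40, 6.05 and 6.31 in Hom macrophages, against 8.12, 8.66 and 7.98 in Het macrophages. Slc6a4, the serotonin transporter, differed by -2.26, but its second probe by 0.81, so its probes disagree. Tmem237 and Cfap45, both linked to cilia, and the cytoskeletal gene Nav2 differed by -1.54, -1.36 and -1.15, at adjusted p-values of 0.202 to 0.258. The 2 other Tmem237 probes differed by -0.25 each, with overlapping groups.

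**Figure D4:**
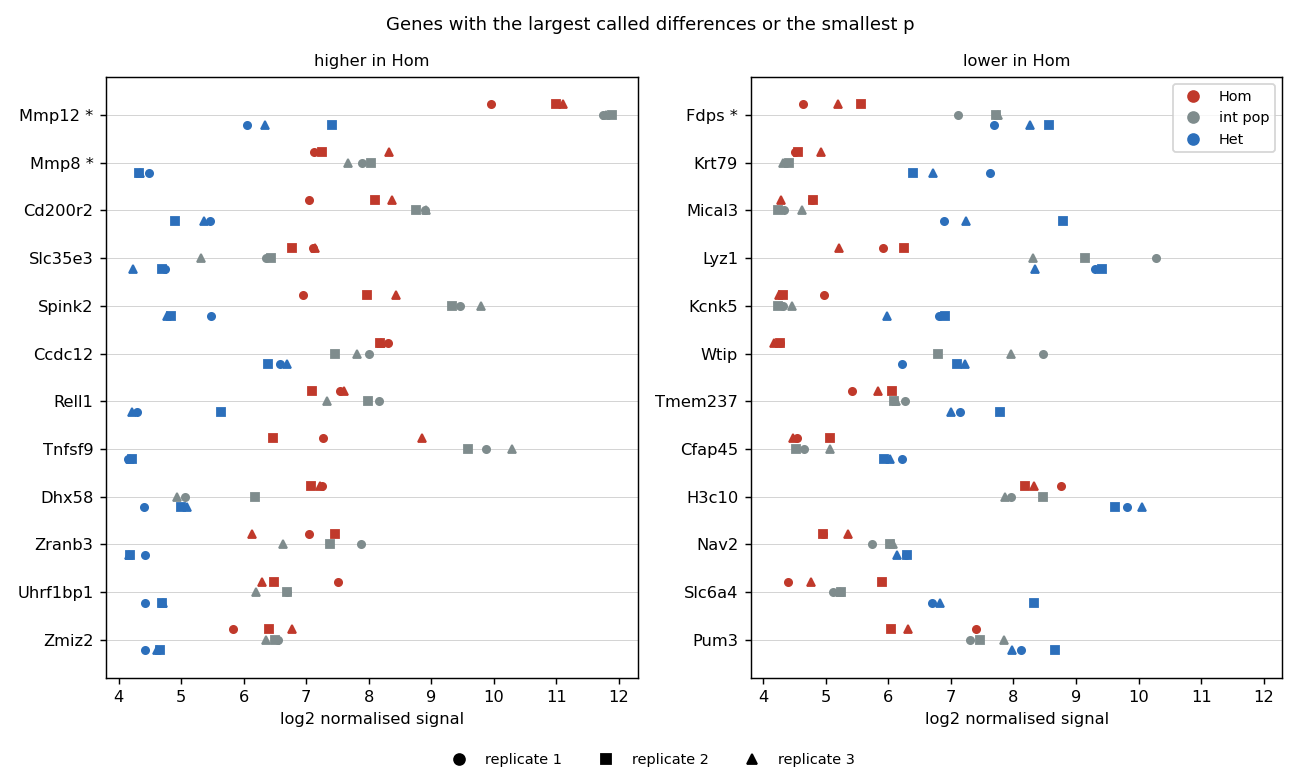
Log2 normalised signal (x axis) of the 12 named genes with higher (left) and the 12 with lower values (right) in Hom macrophages, 1 gene a row, with Hom arrays in red, int pop arrays in grey, Het arrays in blue and marker shape for the replicate number; asterisks mark the genes called, and clone-type symbols such as AA467197 are passed over. Hom and Het arrays do not overlap in any row, while int pop arrays lie with Hom in Mmp8 and Mical3 and with Het in Fdps and Wtip.

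Some probes were above background in 1 group alone. Of the probes tested, 121 were above background on all Hom arrays and no Het array, 92 on all Het arrays and no Hom array, and 12608 on all 6. By signal, and clone-type symbols aside, the genes with the brightest such probes in Hom macrophages were Mmp8, Tnfsf9, Dhx58, Slc35e3 and Zranb3. In Het macrophages they were Mical3, Krt79, Wtip, Kcnk5 and Rprd1a, a regulator of RNA polymerase II, but the second Kcnk5 probe was above background on 2 Hom arrays and 1 Het array. Rprd1a read 4.51, 4.35 and 4.68 in Hom macrophages, against 5.95, 7.40 and 6.05 in Het macrophages (limma adjusted p = 0.402).

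Matrix proteases and their inhibitors held both called metalloproteinases, 2 of 16 measured genes where 0.0354% of all genes were called, and Mmp8 passed the filter only through the Hom arrays. In 5 of the 16 all Hom arrays were above all Het arrays, against 5.34% of all genes. The median of the list was only 0.04, and it was below 0 without Hom replicate 2. Mmp9, the gelatinase, went the other way in value. It read 5.55, 6.21 and 5.11 in Hom macrophages, against 7.43, 5.96 and 6.84 in Het macrophages (limma adjusted p = 0.652). Plau, the urokinase that activates plasmin, read 9.77, 10.46 and 10.68 in Hom macrophages, against 8.68, 9.23 and 8.49 in Het macrophages (adjusted p = 0.258). Timp2, an inhibitor of metalloproteinases, differed by 1.85 (adjusted p = 0.5). Plau and Timp2 were chosen after their values were seen.

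No gene was called by limma among 27 measured proinflammatory cytokines and chemokines, with 5 higher and 1 lower at an unadjusted p below 0.05, where 3.57% and 2.86% of all genes were. The difference was above 0 in 21 of them, at a median of 0.43, against -0.08 and 42% positive over all genes. All Hom arrays lay above all Het arrays in 7 of the 27 and below in 3, against 5.34% and 6.88% of all genes. Ccl2, which recruits monocytes, read 6.22, 6.82 and 6.38 in Hom macrophages, against 5.01, 4.92 and 4.51 in Het macrophages, where it was not above background (limma adjusted p = 0.149). Tnfsf9 of the same list is described above. Ccl24, a chemokine for eosinophils, read lower, at 5.78, 6.38 and 5.75 in Hom macrophages, against 6.52, 6.64 and 7.18 in Het macrophages (adjusted p = 0.651). The median stayed positive under all 24 alternatives, from 0.27 to 0.54.

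The receptors and regulators of NF-kB and Toll-like receptor signalling had mostly positive values too, with 0 of 21 genes called by limma and 5 at an unadjusted p under 0.05, all of them higher, where 3.57% of all genes were. Their median was 0.52, and 19 of 21 differences were positive, against 42% over all genes. In 5 genes every Hom array was above every Het array, as in 5.34% of all genes. Tlr7, an endosomal receptor for RNA, read 7.97, 7.00 and 7.07 in Hom macrophages, against 6.06, 5.95 and 5.61 in Het macrophages (adjusted p = 0.255). Birc3, an inhibitor of apoptosis induced by NF-kB, read 5.93, 5.10 and 5.96 in Hom macrophages, against 4.43, 4.84 and 4.38 in Het macrophages (adjusted p = 0.478). Irak3, a brake on the pathway, read 7.61, 8.23 and 7.96 in Hom macrophages, against 8.00, 8.67 and 8.40 in Het macrophages, with overlap. The list of genes that answer interferon, which does not hold Dhx58, had a median of 0.08 over 11 measured members. None of them had separate groups, where 5.34% of all genes had all Hom arrays above and 6.88% all below. Of the 25 listed genes on the array, the brightest probes of 10 were above background on none of the 6 arrays.

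Cell cycle genes had the lowest median of the 33 lists, -0.56, with 16 of 18 differences negative and 0 called by limma. At an unadjusted p under 0.05 there were 2, both lower, where 2.86% of all genes were. In 8 of the 18, all Hom arrays were below all Het arrays, where 6.88% of all genes were. Mcm6, a subunit of the replicative helicase, read 7.27, 7.36 and 6.91 in Hom macrophages, against 8.51, 8.19 and 8.00 in Het macrophages (limma adjusted p = 0.5). Mcm4, of the same helicase, read 8.30, 8.82 and 9.01 in Hom macrophages, against 9.47, 9.80 and 9.63 in Het macrophages (adjusted p = 0.667), while its 2 other probes differed by -0.15 and -0.05. Birc5, a mitotic protein, had the opposite sign, with 7.68, 6.71 and 7.31 in Hom macrophages, against 7.34, 6.28 and 4.88 in Het macrophages. The median of the list stayed negative under all 24 alternatives, from -0.66 to -0.24.

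**Figure D5:**
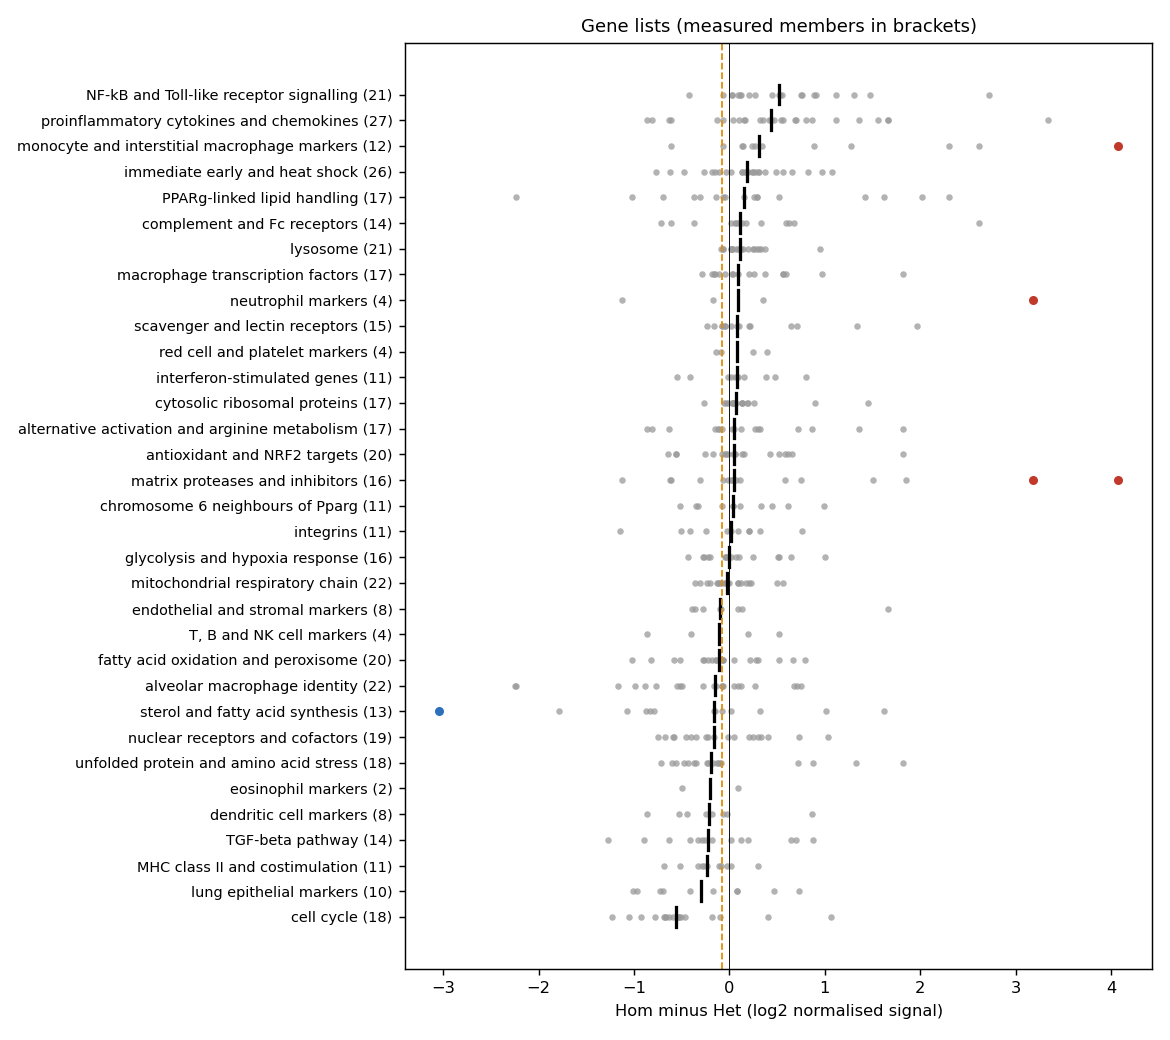
Difference between Hom and Het macrophages (log2, x axis) of every measured gene in 33 gene lists (rows, number measured in brackets), with 1 point a gene, black bars for the list median and the dashed line for the median of all genes, -0.08. Called genes are coloured, and these are Mmp12 and Mmp8, each in 2 lists, and Fdps, while the medians run from -0.56 for cell cycle genes to 0.52 for NF-kB and Toll-like receptor signalling.

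Markers of alveolar macrophages were mostly present in both groups, with more of them lower than higher in value in Hom macrophages. Of 30 markers, 22 were measured and none was called by limma. At an unadjusted p under 0.05 there were 4 lower and 1 higher, where 2.86% and 3.57% of all genes were. The median was -0.15, with 15 of 22 negative, against 58% over all genes. All Hom arrays lay below all Het arrays in 5 of the 22 and above in 1, against 6.88% and 5.34% of all genes. Krt79, described above, and Cidec, which coats lipid droplets, differed most, by -2.25 and -2.23, at limma adjusted p-values of 0.104 and 0.409. The bright markers Chil3, Lpl, Mrc1, Itgax, Plet1 and Clec7a, chosen after their values were seen, read 9.49 or more on each of the 6 arrays, with differences of at most 0.14 in size. Siglecf, which encodes 1 of the sorted surface proteins, read 7.81, 7.99 and 7.89 in Hom macrophages, against 8.42, 8.36 and 8.42 in Het macrophages, and its level reflects the sort as well. The brightest probes of Olr1, Fabp4, Atp6v0d2 and Fabp1 were above background on none of the 6 arrays. Ctsk, cathepsin K, had the opposite sign from most of the list, with 9.85, 10.05 and 9.92 in Hom macrophages, against 9.25, 9.16 and 9.16 in Het macrophages (adjusted p = 0.536).

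Among 17 measured genes of lipid handling linked to PPARg, the values went both ways and none was called by limma, although an unadjusted p under 0.05 was met by 3 with higher values and by 1 with a lower one, against 3.57% and 2.86% of all genes. Cidec, a coat protein of lipid droplets, read 8.41, 6.08 and 5.71 in Hom macrophages, against 8.71, 9.23 and 8.96 in Het macrophages (adjusted p = 0.409). Hom replicate 1 was near the Het arrays and the other Hom arrays far below them, and no int pop array was above background. Apoe, the apolipoprotein that carries lipid out of macrophages, read 9.02, 10.13 and 10.36 in Hom macrophages, against 6.89, 8.04 and 7.67 in Het macrophages (adjusted p = 0.154), and 11.59 ± 0.17 in the int pop arrays. Cd36, Plin2 and Lpl, all known as PPARg targets and chosen after their values were seen, differed by -0.04, -0.31 and -0.14. The median of 0.15 was negative under 3 of 24 alternatives.

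No call was made among the receptors that work with PPARg. Of 19 measured nuclear receptors and cofactors, 0 were called and 0 had an unadjusted p under 0.05 in limma, and none had all Hom arrays below all Het arrays. In 1, Nr1d2, all Hom arrays were above all Het arrays, against 5.34% of all genes. Nr1d2, the circadian repressor REV-ERB beta, read 8.11, 8.12 and 8.62 in Hom macrophages, against 6.96, 7.66 and 8.05 in Het macrophages, a difference of 0.73 (limma adjusted p = 0.75). Rxra, the partner of PPARg on DNA, read 6.61, 6.65 and 6.75 in Hom macrophages, against 6.87, 5.13 and 4.92 in Het macrophages. Ppard, a second PPAR, read 5.75, 4.59 and 5.32 in Hom macrophages, against 5.72, 6.42 and 5.54 in Het macrophages. Genes near Pparg on chromosome 6 gave 11 measured members, 0 called and 0 at an unadjusted p under 0.05 in limma, with overlapping groups in each. Among 17 macrophage transcription factors none was called, and 2 were higher at an unadjusted p under 0.05, against 3.57% of all genes. Irf4 read 6.36, 6.95 and 7.83 in Hom macrophages, against 4.84, 6.04 and 4.79 in Het macrophages (limma adjusted p = 0.393).

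The marker list for monocytes and interstitial macrophages includes Mmp12, the called protease. Of 22 markers 12 were measured, 10 of these had positive differences, against 42% over all genes, and 5 had all Hom arrays above all Het arrays, against 5.34%. At an unadjusted p under 0.05 in limma 5 were higher and 0 lower, where 3.57% and 2.86% of all genes were. The summed level of the 19 markers on the array, on the linear scale of normalised signal, ran from 4193 to 7060 in Hom macrophages, from 9052 to 11356 in int pop arrays and from 2935 to 3170 in Het macrophages. Without Mmp12 alone it ran from 3204 to 4853 in Hom and from 2868.5 to 3089 in Het macrophages, so these groups stayed apart. The int pop arrays then ran from 5278 to 7920. Without Apoe as well, the sum ran from 2417 to 3543 in Hom macrophages and from 2667 to 2885 in Het macrophages. It was 2403 to 4404 in int pop arrays, and the groups overlapped. A linear sum weighs bright genes most, and the bright marker Fcgr4, with a negative difference of -0.61, is still in it. Mmp12 and Apoe are the measured markers of smallest limma p in this list, both higher in Hom macrophages. C1qb, a complement subunit, read 5.79, 6.77 and 7.81 in Hom macrophages, against 4.17, 4.20 and 4.16 in Het macrophages, where it was not above background (limma adjusted p = 0.287). Fcgr4, an Fc receptor, read 9.87, 9.53 and 10.39 in Hom macrophages, against 10.61, 10.38 and 10.65 in Het macrophages. The brightest probes of C1qc, F13a1, Ccr2, Cd163, Lyve1, Tmem176b and Itgam were above background on none of the 6 arrays. Itgam encodes CD11b, used in the sort. The part of such cells in the Mmp12 difference was not tested, and in bulk RNA more cells of a type cannot be told from more RNA per cell.

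Markers of other cells were mostly dim. Of 14 neutrophil markers 4 were measured: Mmp8, which rose, and Mmp9, Camp and Csf3r, which were not called. The brightest probes of Ngp, Cxcr2, Elane, Retnlg, Ltf and Lcn2 were above background on none of the 6 arrays, and the summed level of the 13 on the array was 575 to 763 in Hom macrophages, 616 to 668 in int pop arrays and 431 to 556 in Het macrophages. Mmp8 is in that sum, and without it the level was 436 to 455 in Hom macrophages, 379 to 444 in int pop arrays and 411 to 533 in Het macrophages. The part of neutrophils in the Mmp8 difference was not tested. Eosinophil markers, apart from Siglecf, came down to Il5ra, with overlapping groups, and those of T, B and NK cells to 4 genes, none called. Klrb1c, an NK cell receptor, read 6.73, 6.87 and 6.04 in Hom macrophages, against 7.32, 7.03 and 7.88 in Het macrophages (limma adjusted p = 0.68). It was the 1 of these 4 with an unadjusted p under 0.05, where 2.86% of all genes were lower. The 8 dendritic, 10 epithelial, 8 endothelial and stromal and 4 red cell and platelet markers measured held no call by limma either. At an unadjusted p under 0.05, 1 epithelial and 1 endothelial gene were higher, where 3.57% of all genes were. Vwf, the von Willebrand factor of endothelium, had the largest difference of these, 1.66 (adjusted p = 0.294), and Scgb1a1, of club cells, was among the most variable genes of all, at 4.62, 8.57 and 5.17 over the Het arrays.

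The genes that varied most were not the same in both groups. Over the Hom arrays the widest ranges were those of Cnot3, Slc25a28, Ccdc28b, Kat6b and Tspan17. Cnot3, a subunit of the mRNA deadenylase, read 9.51, 8.29 and 4.33 in Hom macrophages, and Slc25a28, a mitochondrial iron carrier, read 9.25, 6.81 and 4.19. In 3 of the 5, Cnot3, Slc25a28 and Kat6b, Hom replicate 3 was the lowest. Over the Het arrays they were those of Tmem134, Rnf141, Taf7, Plagl2 and Scgb1a1, and the replicate 3 array was the lowest in Tmem134, Rnf141 and Plagl2. Groups of these 10 genes overlapped, with differences of -1.90 to 0.86 and no call.

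Among genes with several passing probes, the probes often disagreed. Of 3059 such genes, 52.7% had the same sign on all probes, and of the 46 whose brightest probe had an unadjusted p under 0.01, 31 did. In 7 all probes were under 0.01: Fam20c, Mfge8, Dhx58, Atp2a3, Cd300a, St8sia4 and Anxa3, all with higher values in Hom macrophages and none called. Mfge8, a bridge between apoptotic cells and phagocytes, read 10.62, 11.25 and 11.52 in Hom macrophages, against 9.29, 8.34 and 9.85 in Het macrophages, and its probes differed by 1.97 and 2.18 (limma adjusted p = 0.238 and 0.141). Fam20c, a kinase of secreted proteins, differed by 2.72 and 2.26, at adjusted p-values of 0.0593 and 0.238.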

How the data were processed

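Gene expression was measured on single-colour Illumina beadchips. The deposited table gives an intensity per probe, not normalized per the file headers, and the detection p-value that goes with it (calculation not stated). A deposited normalized intensity table of the same arrays served as an alternative. Per the labels' protocols, RNA was amplified before labelling. From the intensities, background was corrected in limma 3.58.1 (R 4.3.3) with nec (normexp, offset 16), which estimated the negative controls from detection p-values. Arrays were then quantile normalized and put on a log2 scale. The nec estimate assumes that a detection p is a rank among controls, and the deposited values come from a model instead. All 9 arrays entered the fit, with 1 mean per group (lmFit, eBayes), and p-values were adjusted by Benjamini-Hochberg over the 19849 probes. A gene was read from its brightest passing probe. Symbols came from the platform annotation, updated through RefSeq identifiers for 28620 probes and accessions for 2637, while 4527 kept the annotation's symbol and 10453 have none. The 33 gene lists are described by counts and medians, with no set test. Named genes are Pparg and Lyz2, up to 12 each way by size among called genes and then by p (clone names and predicted genes passed over), in each described list its called genes, the 2 of smallest p and 1 of opposing sign, 5 each way seen in 1 group alone, and the 5 most variable in each group. The members and lists were chosen with earlier results of these data known. The fit was tested on simulated data. Alternatives were other background corrections, normalizations, filters, fits and left-out arrays.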

Additional observations from a re-analysis of the deposited data

How the results depend on the processing

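No difference of Pparg, the called probes or the leading genes changed its sign under any of the 19 to 24 alternatives in which it could be tested, while medians of several lists near 0 did, and the number of calls depended on most of them. The called probes and leading genes were picked from these same arrays, and in each the Hom and Het arrays were fully apart. An unchanged sign was therefore nearly certain for them and is no support. Against 6 called probes, there were 10 with no background correction, 3 with no normalization between arrays, 21 on the authors' normalized values (19 higher and 2 lower, 4 of them shared), 1 with detection on all 6 arrays, 2 with no filter, 3 on the 6 compared arrays alone (1 shared), 1 with the median raw signal as a covariate and 1 with a minimum fold of 1.5. With the replicate number as a block there were 3 on 9 arrays and 0 on 6 arrays, where 1432 probes had an unadjusted p under 0.05. Leaving out 1 array gave 0 to 6 called probes, with 0 without Hom replicate 2 or Hom replicate 3 (1668 and 1233 at an unadjusted p under 0.05) and 1 without Het replicate 1, Het replicate 3 or int pop replicate 1. The counts with an offset of 50, median scaling, 1 probe per gene and array weights were 6, 8, 4 and 9, and the same 6 probes were called with the titles' names Hom1 to Hom3 as a random block (duplicateCorrelation, chosen after seeing the data; consensus correlation 0.114).

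Of the genes in the lists 3 were called, and there were 8 on the authors' values, 1 with detection on all 6 arrays and 0 with no filter, on the 6 arrays alone, with the replicate block on 6 arrays, with the signal covariate and with the minimum fold. Leaving out 1 array gave 0 to 2. The ratio of the spreads, 1.20, ran from 0.781 to 1.68 over left-out arrays, and the Pparg difference from -0.81 to -0.02, at adjusted p-values of 0.746 to 1 over all alternatives. The probe without a symbol was called in 18 of its 19 alternatives, Mmp12 in 14 of 24 and Mmp8 in 10 of 20. Fdps was called in 8 of 23, AA467197 in 6 of 20 and Sbno1 in 3 of 19. Same-numbered Hom and Het arrays correlated in their deviations at 0.242, -0.0235 and 0.132. Hom replicates 1 and 3 correlated best with the Het array of their own number, and Hom replicate 2 with Het replicate 3, at 0.177. The labels do not say whether the numbers pair the arrays, and the main fit did not pair them. With the replicate block on 9 arrays the adjusted p was 0.0889 for Mmp8, 0.0784 for AA467197 and 0.116 for Sbno1, while Mmp12, Fdps and the probe without a symbol were called. Same-numbered Hom and int pop arrays correlated at 0.178, -0.0632 and 0.14. Hom replicates 1 and 3 again correlated best with their own number, and Hom replicate 2 with int pop replicate 3, at 0.178. The cause of these changes was not tested.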

Other observations

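Igf1, the insulin-like growth factor, and Ecm1, a secreted matrix protein, were not called but were each called under 3 alternatives, and they were chosen after their values were seen. The brightest Igf1 probe read 10.30, 10.22 and 10.08 in Hom macrophages, against 8.21, 8.81 and 8.85 in Het macrophages (limma adjusted p = 0.125), and the int pop arrays averaged 10.41. Every Hom array lay above every Het array on 2 of the 3 Igf1 probes, and the third overlapped. Ecm1 read 7.97, 8.44 and 8.56 in Hom macrophages, against 6.16, 6.46 and 4.79 in Het macrophages (adjusted p = 0.121). A probe of Lrrc75a, called under 3 alternatives too, differed by 4.00 (adjusted p = 0.116), while its 2 other probes differed by -0.43 and -0.36.

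Gene lists of metabolism and stress held no called gene apart from those already named. Lysosomal genes had 18 of 21 positive differences with a median of 0.11, against 42% positive over all genes. All Hom arrays lay above all Het arrays in 6 of the 21, against 5.34% of all genes. Npc1, a cholesterol exporter of the lysosome, differed by 0.37 and Lamp1 by 0.33. Mitochondrial respiratory chain genes stood at a median of -0.03, fatty acid oxidation at -0.11 and glycolysis at -0.01, with Slc2a1, the glucose transporter, at 9.15, 8.32 and 8.73 in Hom macrophages, against 8.21, 7.88 and 7.12 in Het macrophages (limma adjusted p = 0.628). Slc7a11, the cystine importer, read 8.33, 9.65 and 10.09 in Hom macrophages, against 7.71, 8.27 and 6.63 in Het macrophages (adjusted p = 0.448), and 1 of its 3 other probes had the opposite sign. Unfolded protein and amino acid stress genes had 14 of 18 negative differences, against 58% over all genes, with a median of -0.20. Antioxidant genes had a median of 0.05. The medians of glycolysis and the respiratory chain turned their sign under 9 and 4 of 24 alternatives, and those of fatty acid oxidation and antioxidant genes under 1.

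Immediate early and heat shock genes, which can rise during cell handling, had a median of 0.19 and no call. Ier3 read 11.71, 11.89 and 11.60 in Hom macrophages, against 10.89, 10.59 and 10.49 in Het macrophages (limma adjusted p = 0.351). Inhba, the activin subunit, read 7.25, 8.27 and 7.93 in Hom macrophages, against 8.72, 9.58 and 8.99 in Het macrophages (adjusted p = 0.499), in a TGF-beta list with a median of -0.22. The medians were -0.23 for MHC class II and costimulation, 0.02 for integrins, 0.07 for ribosomal proteins, 0.05 for alternative activation, 0.08 for scavenger and lectin receptors and 0.11 for complement and Fc receptors. Those of other cell types were 0.09 for neutrophils, -0.20 for eosinophils, -0.21 for dendritic cells, -0.10 for T, B and NK cells and -0.29 for epithelium. Endothelium and stroma had -0.09, red cells and platelets 0.08, and monocytes and interstitial macrophages 0.31. Lists of no cell type had -0.17 for nuclear receptors, 0.09 for transcription factors and 0.04 for genes near Pparg. Of the medians in this paragraph, the neutrophil one turned its sign under 8 of 24 alternatives and the red cell one under 3. Those of alternative activation, endothelium, epithelium and genes near Pparg did so under 2. Those of MHC class II, integrins, ribosomal proteins, eosinophils and nuclear receptors did so under 1.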
